A study of Mus musculus with 28 samples.

Results

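Fibroblasts that had received Hnf4a and Foxa1 were followed as they went on, after their first 48 h, to become induced hepatocyte-like (iHep) cells. The comparison set the 6 iHep libraries made with Foxa1 (iHep_4a1, replicates 1 to 6) against the 2 libraries of the 48 h stage (48hr_4a1, replicates 1 and 2), 8 of the 28 libraries in the series, chosen by their titles and stage labels. Both stages started from C57BL/6 mouse embryonic fibroblasts (MEF) of embryos taken 13.5 days after conception, and both carried the same pair of pGCDNsam retroviruses, for Hnf4a and for Foxa1. The iHep cells were made and kept by the published Sekiya and Suzuki procedure, with no time in culture stated, and the labels name no group with an empty virus. Starting MEF and hepatocytes freshly isolated from livers of mice 10 weeks old (Hep) are given as levels beside these values. The same 2 stages made with Foxa2 or Foxa3 in place of Foxa1 are given likewise for a few genes, or as the other side of a stated difference. All 28 libraries of the series entered the fit and its estimate of spread. They include 2 libraries of the 48 h stage titled 48hr_4a3_del2, which are not described further. The labels still list the cell type of all 8 libraries as embryonic fibroblasts, and do not say whether replicates were separate cultures. A p-value here thus rests on the spread within all groups of the series, which may be technical.

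Hnf4a is a nuclear receptor that sets up and maintains hepatocyte gene expression, and Foxa1 is a forkhead factor of foregut endoderm that can bind its sites in closed chromatin. Foregut endoderm gives rise to liver, stomach, pancreas, lung and proximal intestine, and Foxa and Hnf4 proteins act in several of these organs. Fibroblasts that turn into epithelial cells lose the transcription factors, collagens and contractile proteins of mesenchyme and gain cadherins, claudins and keratins of simple epithelia.

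Promoters of genes with large late changes are shown first, because they put recognition letters beside the genes that moved. The letters are those of the introduced factor families and of AP-1, a factor family that was not introduced. Promoters were 300 bases long, from 250 before to 50 after a gene's start, taken from RefSeq on GRCm38.p6, 5′ to 3′ on the gene's strand. Capitals mark the matched letters. Cdx2 (intestinal homeobox factor, minus strand, chr5:147307200-147307499) and Smgc (salivary mucin-locus protein, plus strand, chr15:91838078-91838377) each held 1 forkhead match. Rbp2 (enterocyte retinol-binding protein, plus strand, chr9:98490287-98490586) held 1 HNF4 match, and the first of 4 listed promoters of Esrrg (nuclear receptor, plus strand, chr1:187608756-187609055) held 1 AP-1 match.
Cdx2: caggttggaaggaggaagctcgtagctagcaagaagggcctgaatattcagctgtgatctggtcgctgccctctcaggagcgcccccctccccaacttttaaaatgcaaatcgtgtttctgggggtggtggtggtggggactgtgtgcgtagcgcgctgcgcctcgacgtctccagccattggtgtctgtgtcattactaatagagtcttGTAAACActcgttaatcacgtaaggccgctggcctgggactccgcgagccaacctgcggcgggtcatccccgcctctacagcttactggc
Smgc: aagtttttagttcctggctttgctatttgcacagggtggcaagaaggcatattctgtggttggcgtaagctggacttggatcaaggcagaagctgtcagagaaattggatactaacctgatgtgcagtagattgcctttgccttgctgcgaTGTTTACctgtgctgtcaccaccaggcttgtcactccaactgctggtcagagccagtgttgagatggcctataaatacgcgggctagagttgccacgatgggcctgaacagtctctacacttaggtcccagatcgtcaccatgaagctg
Rbp2: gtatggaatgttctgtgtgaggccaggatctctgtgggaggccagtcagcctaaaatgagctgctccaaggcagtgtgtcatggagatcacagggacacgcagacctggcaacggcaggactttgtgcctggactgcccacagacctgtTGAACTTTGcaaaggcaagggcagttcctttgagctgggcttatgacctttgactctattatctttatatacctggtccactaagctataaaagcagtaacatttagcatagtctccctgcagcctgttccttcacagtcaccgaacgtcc
Esrrg: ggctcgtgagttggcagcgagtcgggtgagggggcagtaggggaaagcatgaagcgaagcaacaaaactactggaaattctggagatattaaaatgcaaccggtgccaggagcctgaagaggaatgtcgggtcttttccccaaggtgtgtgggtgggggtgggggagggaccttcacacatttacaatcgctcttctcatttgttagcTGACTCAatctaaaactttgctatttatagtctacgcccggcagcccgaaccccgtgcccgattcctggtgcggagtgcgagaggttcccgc
The forkhead motif searched was TGTTTAC, the HNF4 motif CAAAGTNCA and the AP-1 motif TGANTCA, each on both strands. The match lay 40 to 34 bases before the start of Cdx2, 99 to 93 before Smgc, 101 to 93 before Rbp2 and 42 to 36 before Esrrg. Of the 15 named gains described below 8 had a promoter in the table, and of the 14 named losses 10 did, so these 4 genes were the ones with any match among 18. The HNF4 motif was in 2.01% of the genes higher in iHep cells that have a promoter in the table, 1.18% of those lower, 1.58% of all tested and 1.64% of all in the table. The forkhead motif was in 4.23%, 3.06%, 3.25% and 4.05%. The AP-1 motif was in 7.52%, 7.14%, 6.93% and 8.97%. These shares are descriptions of short windows without a test, and a match is not a binding site.

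The iHep libraries held 17996416 to 31216564 assigned reads, and the 48 h libraries 34069974 and 40577947. The iHep libraries fell into 2 sets. Rn7sk, a small nuclear RNA without a poly(A) tail, stood at 47.2 to 67.9 CPM (the count scaled to library size, with TMM factors) in iHep replicates 4 to 6, at 0.258 to 1.05 CPM in iHep replicates 1 to 3, and at 17.2 and 23.8 CPM at 48 h. Rps29, a short ribosomal protein transcript, likewise stood at 663 to 921, 27.6 to 33.4, and 292 and 253 CPM. Labels name no batch. For both RNAs replicates 4 to 6 lay above the 48 h pair and replicates 1 to 3 below it. Counts over all genes are given for all 6 libraries and for each set alone, and list counts for each set where they differed by more than 1.5 times and by at least 3 genes. Between the sets themselves, 2964 genes (17.4%) were higher and 3045 (17.9%) lower in replicates 4 to 6 than in replicates 1 to 3. Across genes, the iHep libraries correlated with each other at r = 0.917 to 0.978, and the 48 h pair at 0.998.

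**Figure D1:**
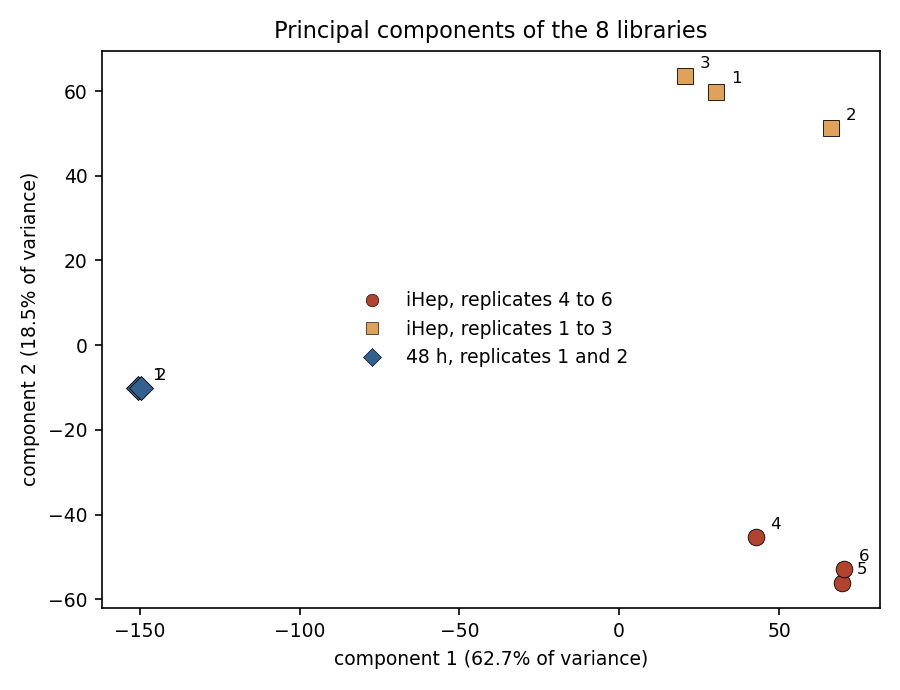
Principal components of the 8 Foxa1 libraries, from log2 levels of all genes tested. Each point is 1 library with its replicate number. Component 1, on the x axis with 62.7% of the variance, separates iHep from 48 h libraries, and component 2, on the y axis with 18.5%, separates iHep replicates 4 to 6 from replicates 1 to 3.

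Of 16499 genes tested, 6926 (42.0%) differed between iHep and 48 h cells at an adjusted p under 0.05. Higher in iHep cells were 3506 genes (21.2%) and lower 3420 (20.7%). Changes of more than 4-fold were made by 1393 higher and 1781 lower genes, and of more than 64-fold by 373 and 392. The values of the 6 and the 2 libraries did not overlap for 7899 genes (47.9%). The median log2 fold change (iHep over 48 h, as in every fold change below) over all genes was 0.08. Among the gains, 245 genes reached a mean of at least 10 CPM in iHep cells and had less than 1 CPM at 48 h, and 200 of the losses did the reverse. With iHep replicates 4 to 6 alone, 4085 of 17019 genes (24.0%) were higher and 4496 (26.4%) lower, of which 3024 and 3123 were also called in that direction with all 6. With replicates 1 to 3 alone, 3815 (22.4%) were higher and 4480 (26.3%) lower, and 2852 and 3082 were called with all 6. The 48 h group holds only 2 libraries: without replicate 1 the count of calls was 4077 (1715 higher, 2362 lower) and without replicate 2 it was 4046 (1694 higher, 2352 lower), with the lone 48 h library assumed to vary like the other groups. List counts below depend on this pair too: of 84 (higher and lower for each list), 35 moved by more than 1.5 times without replicate 1 and 36 without replicate 2. Shares of each list are read beside the 21.2% higher and 20.7% lower over all genes. Since all RNA came from bulk cultures, fewer cells of a type and less RNA per cell cannot be told apart.

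The introduced factors were themselves higher in iHep cells. Foxa1 stood at 1810, 1350, 3420, 697, 468 and 511 CPM in iHep replicates 1 to 6, and at 50.5 and 46.1 CPM at 48 h (log2 fold change 4.83 ± 0.94 SE, adjusted p = 0.00031 in edgeR's quasi-likelihood test, as for every adjusted p below unless another tool is named). Hnf4a stood at 262, 314, 108, 486, 670 and 363 CPM in the iHep libraries and at 78.1 and 56.4 CPM at 48 h (2.45 ± 0.69, adjusted p = 0.00689). No iHep library overlapped the 48 h pair for either gene, but the call of Hnf4a was lost without 48 h replicate 1 (adjusted p = 0.0507) or 2 (0.0953). Foxa1 was higher in replicates 1 to 3 (1350 to 3420 CPM) than in replicates 4 to 6 (468 to 697 CPM; set difference -1.88 ± 0.52, adjusted p = 0.00746). Reads from the virus and from the cell's own gene cannot be told apart in these files. The Foxa genes that were not introduced stayed low: Foxa3 had 0.155 to 0.627 CPM in iHep cells and 0.0267 and 0.135 CPM at 48 h (2.02 ± 0.77, adjusted p = 0.0399, which became 0.0723 with replicates 4 to 6 and 0.298 without 48 h replicate 1, 0.0529 without 48 h replicate 2, 0.0761 without iHep replicate 2 and 0.0672 without iHep replicate 6), and Foxa2 had 0 to 0.67 CPM in iHep cells and 0.0267 and 0.202 CPM at 48 h (adjusted p = 0.646).

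Of the defining hepatocyte markers Alb, Ttr, Apoa1 and Cps1, the first 3 were higher in iHep than in 48 h cells and Cps1 was not called. Of the defining fibroblast markers Col1a1, Pdgfra, Twist1 and Prrx1, all 4 were lower in iHep cells and none was at 0 in any iHep library. The defining intestinal markers Cdx2 and Vil1 and the cholangiocyte markers Krt7, Krt19 and Sox9 were all higher in iHep cells, where 9 of the 31 cholangiocyte and progenitor genes tested were lower and 10 higher. Values for each are given below.

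Among the 15 largest late gains were genes known from secretory and absorptive epithelia of stomach, gut, pancreas, salivary gland and airway. Tff3, a trefoil peptide secreted by intestinal goblet cells, had 153 CPM in the lowest, 803 in the median and 3820 CPM in the highest iHep library and 0 counts in both 48 h libraries. That is at least 31600-fold higher in iHep cells, counted against a floor of 3 counts over the 48 h group (adjusted p = 3.86e-05). Clca1, another goblet-cell product, had 416, 892 and 6540 CPM in the lowest, median and highest iHep library and 0.0267 and 0.0449 CPM at 48 h. With 3 counts in the 48 h group, the ratio of the pooled levels was 50500, with an exact Poisson interval of 17300 to 245000 at 95% that covers counting error only. Only called genes whose iHep and 48 h libraries did not overlap could enter the 15, so that separation was fixed by the choice. Means in iHep cells with Foxa2 and Foxa3 were 110 and 380 CPM for Tff3, 965 and 834 CPM for Clca1 and 32.8 and 56.4 CPM for Cdx2. They were 1.41 and 0.387 CPM for Dmbt1, also among the 15 and described below. The 48 h means with those factors were at most 0.0585 CPM for each of these genes.

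Stomach products rose with the intestinal ones. Tff1, the trefoil peptide of gastric surface cells, had 50.9, 166 and 630 CPM in the lowest, median and highest iHep library and 0 counts at 48 h (at least 8560-fold higher, adjusted p = 0.000181). Gkn2, a gastrokine of the same cells, had 20, 189 and 387 CPM and 0 counts at 48 h (at least 5410-fold higher, adjusted p = 0.000142). Psca, a surface antigen of gastric and other epithelia, had 66.8 to 961 CPM in iHep cells and 0.0267 and 0.0225 CPM at 48 h (ratio 12000, exact interval 3330 to 99500). Pdx1, a homeobox factor of pancreas, antrum and duodenum, had 5.83 to 75.6 CPM in iHep cells and 0 counts at 48 h. In the stomach list 14 of 19 genes were tested, of which 9 were higher and 1 (Sox2, a foregut and stem-cell factor, 0 counts in iHep cells and 0.881 and 1.17 CPM at 48 h) lower. A member could pass the filter on low counts through the iHep libraries alone, so this count is a description of the tested members.

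Among intestinal genes, Cdx2, whose promoter is shown above, had 46.4 CPM in the lowest, 75.2 in the median and 170 CPM in the highest iHep library and 0 counts in both 48 h libraries (at least 2350-fold higher, adjusted p = 1.44e-05). Vil1, the actin bundler of microvilli, had 54.5, 227 and 962 CPM against 0.107 and 0.449 CPM at 48 h (10.19 ± 1.36, adjusted p = 4.74e-06). Lgals4, a gut galectin, had 121, 483 and 2410 CPM against 1.89 and 1.78 CPM at 48 h (8.68 ± 1.37, adjusted p = 3.44e-05). Vil1 and Lgals4 were well above both 48 h libraries in every iHep library, as Cdx2 had to be to count among the largest gains. All 3 were highest in replicate 2. Of 33 tested genes among 39 listed, 16 were higher and 3 lower, with the same limit. The lower ones included Lgr5, a receptor of intestinal stem cells that is also active in fibroblasts here, with 0.126 to 1.36 CPM in iHep cells, 24.6 and 23.5 CPM at 48 h and a mean of 52.5 CPM in MEF. Anpep, a brush-border aminopeptidase, likewise stood at 0.348 to 1.72 CPM in iHep cells and 25 and 21.1 CPM at 48 h. Some gut genes rested on replicate 2 alone. Lypd8, a colonic surface protein, had 117 CPM there and at most 0.433 CPM in the other 5 libraries, and its call (adjusted p = 0.0462) was lost with replicates 4 to 6 (adjusted p = 0.544). Cdhr2, a microvillus cadherin, had 87.6 CPM in replicate 2 and at most 3.35 CPM elsewhere (adjusted p = 0.021, or 0.0569 with replicates 4 to 6), and neither gene was called without 48 h replicate 1 (adjusted p = 0.191 and 0.123) or 2 (0.2 and 0.131). Cdh17, an intestinal cadherin, was not called (1.29 ± 1.41, adjusted p = 0.488), with 158 CPM in replicate 2, 0.522 to 8.61 CPM in the other 5 iHep libraries and 11.3 and 12.3 CPM at 48 h. Without replicate 2 it was lower in iHep cells (log2 fold change -1.95, adjusted p = 0.0266).

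Spink1, a trypsin inhibitor of pancreas and gut, was the second most abundant gene per length by its mean over the 6 iHep libraries, 8860 FPKM (a level scaled to transcript length and library size) against 0.705 FPKM at 48 h, behind Apoa1. Its rank was 121, 1, 37, 3, 4 and 1 in replicates 1 to 6. Its CPM ranged over 198, 3980 and 8990 in the lowest, median and highest iHep library and stood at 0.16 and 0.382 at 48 h (13.67 ± 1.82, adjusted p = 4.61e-06). Replicates 1 and 3 were the low ones, at 198 and 357 CPM. The amylases had the opposite order among libraries: Amy2a5 had 402 and 558 CPM in replicates 1 and 3, 9.28 to 26.7 CPM in the other 4 and 0 counts at 48 h (at least 4860-fold higher, adjusted p = 0.000571). Amy2b gave the same picture, with 187 and 311 CPM in those libraries, but the copies are so alike that their reads cannot be assigned with certainty. Dmbt1, a secreted mucosal scavenger protein, had 2310 CPM in replicate 2, 1.22 to 14.3 CPM in the other 5 and 0 counts at 48 h (adjusted p = 0.0131, or 0.0505 with replicates 4 to 6). Scgb1a1, the secretoglobin of airway club cells, had 463 CPM in replicate 6, 1.08 to 13 CPM in the other 5 and 0 counts at 48 h (adjusted p = 0.0179, or 0.0517 with replicates 1 to 3). Without 48 h replicate 1 or 2 the adjusted p was 0.0945 or 0.0994 for Dmbt1 and 0.11 or 0.116 for Scgb1a1. The remaining genes among the 15 largest gains were Smgc, Ppp1r1b (a phosphatase inhibitor), Scnn1g (a subunit of the epithelial sodium channel), Gcnt3 (a mucin glycosyltransferase), Rbp2 and Mal (a proteolipid of apical transport). Their medians over the iHep libraries were 175, 41.6, 148, 375, 66.6 and 318 CPM, and no 48 h library had more than 1 count of any of them.

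**Figure D2:**
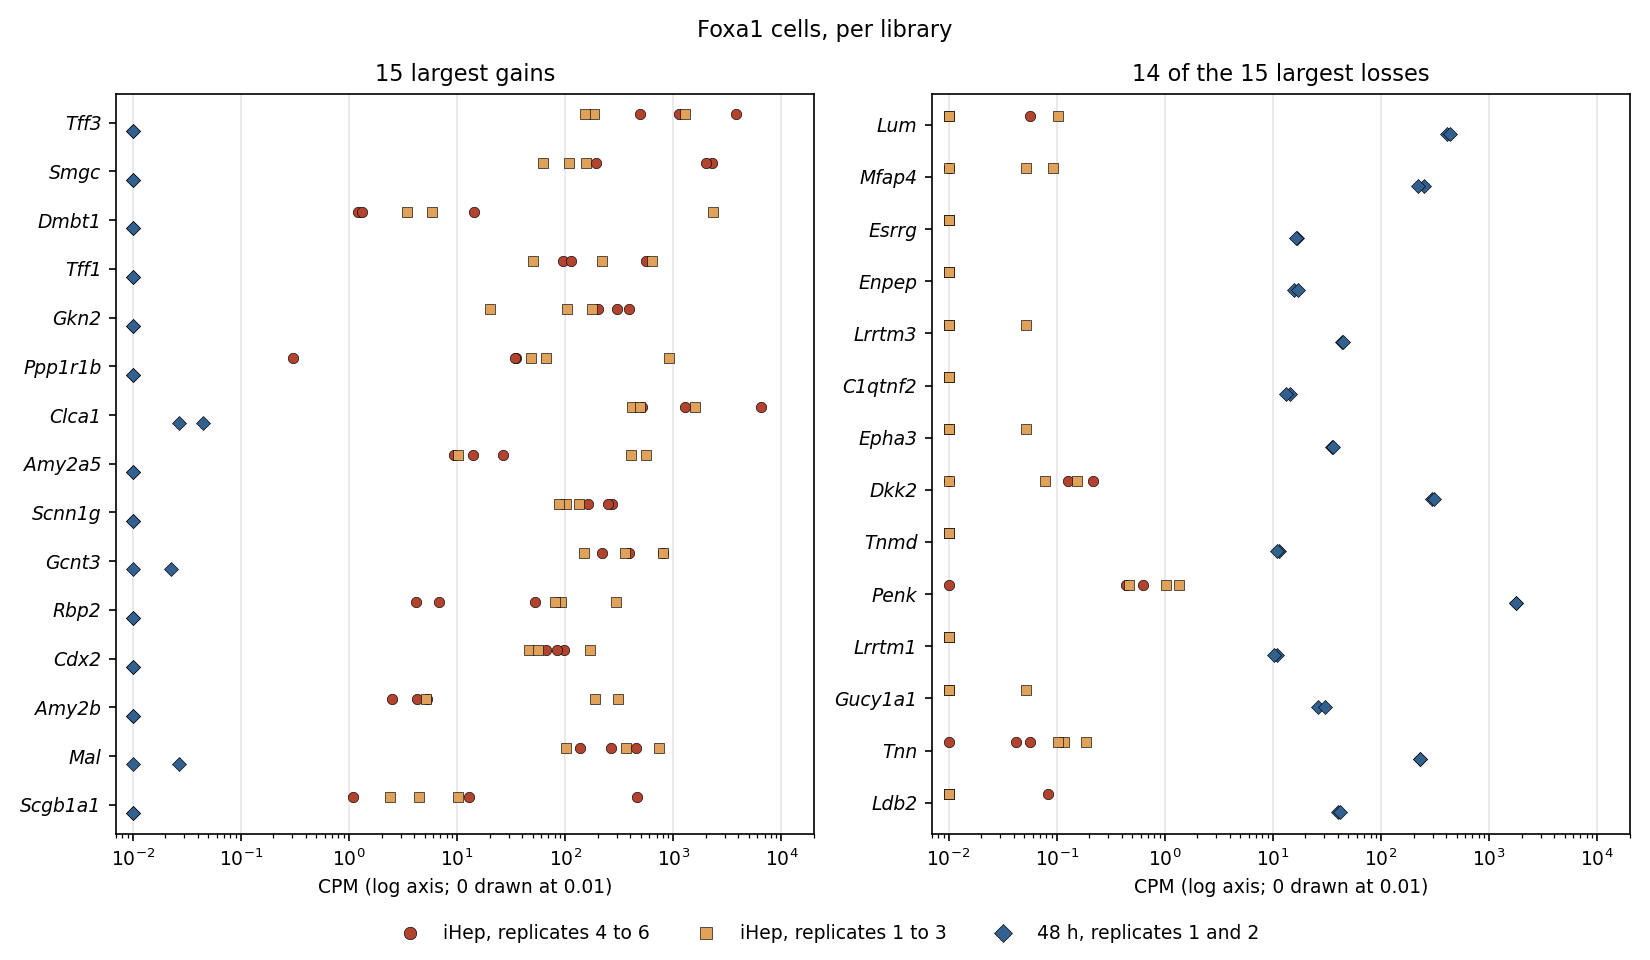
Levels in CPM, on a log x axis, of the 15 largest gains (left panel) and 14 of the 15 largest losses (right panel) in each of the 6 iHep and 2 48 h libraries of Foxa1 cells. Circles are iHep replicates 4 to 6, squares iHep replicates 1 to 3, and diamonds the 48 h libraries, with 0 drawn at 0.01. By the rule that chose these genes, the iHep points of the gains lie above both 48 h points and those of the losses below them. The 6 iHep points of a gain can range widely (Dmbt1 1.22 to 2310 CPM, with at most 14.3 CPM outside replicate 2). The 2 48 h points of a loss can lie close (Lum 411 and 435 CPM), but ranges of 6 and of 2 points are not comparable.

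Genes of simple epithelia were higher as a body. Of 61 listed and tested, 50 were higher in iHep cells, 0 lower and 11 not called, with a median log2 fold change of 5.27, beside a background of 21.2% higher. Replicates 4 to 6 gave 50 higher and replicates 1 to 3 gave 47. Cdh1, E-cadherin, had 333 CPM in the lowest, 570 in the median and 1010 CPM in the highest iHep library and 4.75 and 6.09 CPM at 48 h (6.77 ± 0.68, adjusted p = 1.22e-07). F11r, the tight-junction protein JAM-A, was among the 8 genes with the smallest p of the whole comparison, with 272, 350 and 434 CPM against 21.7 and 21.6 CPM at 48 h (4.01 ± 0.24, adjusted p = 2.34e-10). Both genes varied little among the iHep libraries compared with their distance to the 48 h pair. Lsr, which organizes tricellular junctions, had 225 to 534 CPM against 2.16 and 3.24 CPM at 48 h (7.13 ± 0.53, adjusted p = 2.12e-09), and cingulin (Cgn) had 127 to 582 CPM against 1.97 and 1.84 CPM.

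Keratins of simple epithelia followed. Krt8 had 309, 719 and 2790 CPM in the lowest, median and highest iHep library and 2.08 and 1.51 CPM at 48 h (9.39 ± 1.20, adjusted p = 2.58e-06), and its partner Krt18 had 116, 357 and 660 CPM against 2.4 and 2.88 CPM (7.07 ± 0.89). Krt19 and Krt7, keratins of ducts and gut that adult hepatocytes lack, had medians of 967 and 289 CPM in iHep cells, against 48 h levels of 91.7 and 102 CPM for Krt19 and 3.92 and 3.6 CPM for Krt7. Their means in Hep were 0.613 and 0.184 CPM. Krt7 varied widely, with 11.4 CPM in replicate 5 and 935 CPM in replicate 2. The claudin Cldn3 followed the library set, as it had 126 to 246 CPM in replicates 4 to 6, 0.927 to 34.4 CPM in replicates 1 to 3 and 0.0534 and 0.135 CPM at 48 h, while Cldn2 had 31.7 to 249 CPM in iHep cells against 0.16 and 0.315 CPM. Epcam, an epithelial adhesion protein of progenitors, ducts and gut that was at 0.122 CPM in Hep, had 3.66, 50.2 and 253 CPM against 0.213 and 0.247 CPM at 48 h (8.64 ± 1.68, adjusted p = 0.000319). The epithelial splicing regulators Esrp1 and Esrp2 had medians of 22.9 and 30 CPM in iHep cells, against at most 0.0449 and 1.73 CPM at 48 h. Elf3, an epithelial ETS factor, had 6.95 to 213 CPM in iHep cells and 0.107 and 0 CPM at 48 h.

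Some liver transcription factors were higher in iHep cells. Of 28 tested, 14 (50%) were higher and 2 (7.14%) lower in iHep cells, with a median log2 fold change of 2.58 (2.18 with genes at 0 counts at their bound). Replicates 4 to 6 alone gave 5 lower genes and replicates 1 to 3 gave 2. Gata4, an endoderm zinc-finger factor, had 10 CPM in the lowest, 22.9 in the median and 81.2 CPM in the highest iHep library and 0.56 and 0.382 CPM at 48 h (6.00 ± 0.94, adjusted p = 2.93e-05), and its mean in Hep was 24.4 CPM. Gata6 had 11.6 to 39.9 CPM against 6.43 and 6.14 CPM at 48 h, around the 19 CPM of Hep. Cebpa, a leucine-zipper factor of hepatocytes and adipocytes, had 50.4, 73.4 and 154 CPM against 20.9 and 20.8 CPM at 48 h (2.04 ± 0.47, adjusted p = 0.00144), and stayed below the 2050 CPM of Hep.

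Nuclear receptors of the liver went both ways. Nr1i2, the xenobiotic receptor PXR, had 6.35 to 56.1 CPM in iHep cells and 0.881 and 0.719 CPM at 48 h (4.71 ± 0.93, adjusted p = 0.000365), and Nr1h3, the oxysterol receptor LXR alpha, had 7.62 to 28 CPM against 1.63 and 1.15 CPM (3.42 ± 0.54). Rxra, their dimer partner, was lower, with 27.1 to 92.1 CPM in iHep cells and 145 and 139 CPM at 48 h (-1.26 ± 0.30, adjusted p = 0.00191). Esrrg had 0 counts in all 6 iHep libraries and 16.6 and 16.2 CPM at 48 h (at least 774-fold lower, adjusted p = 9.43e-08). The bile acid receptor Nr1h4 reached 3.22 CPM in replicate 2 and at most 0.461 CPM elsewhere, against 0 and 0.0449 CPM at 48 h and 172 CPM in Hep (adjusted p = 0.0507, which passed without iHep replicate 1, 3, 4 or 5, at 0.0308 to 0.0441). Its target Nr0b2 had 0 counts in all 8 libraries, which allows up to 0.0212 CPM over the iHep group, and 24.6 CPM in Hep. Ppara, the fatty acid receptor, stood at 1.72 to 2.85 CPM in iHep cells, 2.51 and 3.06 CPM at 48 h and 227 CPM in Hep (adjusted p = 0.618). Hhex and Prox1, homeobox factors of early liver buds, had 4.71 to 12.1 and 2.22 to 12.4 CPM in iHep cells, against at most 0.427 and 0.292 CPM at 48 h.

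Of the plasma proteins that hepatocytes secrete, 16 of 41 were higher in iHep cells and 4 lower, with a median log2 fold change of 3.97 (2.12 with genes at 0 counts at their bound). Their summed level was 2740 to 6590 CPM in iHep cells, 563 and 576 CPM at 48 h and 241000 and 259000 CPM in Hep. Alb, serum albumin, had 1680, 313, 350, 497, 52.7 and 51.8 CPM in iHep replicates 1 to 6, 2.56 and 1.93 CPM at 48 h and a mean of 140000 CPM in Hep (7.77 ± 2.24, adjusted p = 0.0082). Replicate 1 stood highest, and every iHep library lay above the 48 h pair and far below Hep. The call was lost without 48 h replicate 1 (adjusted p = 0.0795) or 2 (0.0905). Ahsg (fetuin-A) had 48.2, 666 and 2750 CPM in the lowest, median and highest iHep library against 0.374 and 0.472 CPM at 48 h (11.06 ± 2.01, adjusted p = 0.000154). Trf (transferrin) had 43.5, 427 and 668 CPM against 4.94 and 5.06 CPM (6.23 ± 0.93, adjusted p = 1.72e-05). Kng1 (kininogen) had 974 to 2050 CPM in replicates 4 to 6, 30.7 to 291 CPM in replicates 1 to 3 and 5.12 and 9.84 CPM at 48 h, so that its upper libraries came near the 2490 CPM of Hep.

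The fetal protein Afp had 1.65, 16 and 301 CPM in the lowest, median and highest iHep library, 0 and 0.0449 CPM at 48 h and 1.35 CPM in adult Hep (ratio of iHep to 48 h 2810, exact interval 777 to 23200, adjusted p = 0.00108). It was highest in replicate 2. Ttr, the thyroxine carrier, also had its highest value there, 43.9 CPM, with 0.13 to 9.05 CPM in the other iHep libraries, at most 0.0267 CPM at 48 h and 5350 CPM in Hep (adjusted p = 0.00849, or 0.071 and 0.0947 without 48 h replicate 1 and 2). Cp (ceruloplasmin) and Hpx (hemopexin) had medians of 474 and 64.6 CPM in iHep cells, against 9.29 and 11.1 CPM at 48 h for Cp and 0.774 and 0.719 CPM for Hpx. Of the proteins that fell, Igf1, a growth factor made by liver and by fibroblasts, had 0.228 to 1.74 CPM in iHep cells against 64.8 and 71.1 CPM at 48 h (-6.52 ± 0.66, adjusted p = 1.32e-07). Serpinf1 (pigment epithelium-derived factor) had 1.25 to 7.86 CPM against 242 and 241 CPM at 48 h (-6.21 ± 0.93).

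Some coagulation and complement genes were higher in iHep cells. Of 23 coagulation genes tested, 8 (34.8%) were higher and 4 (17.4%) lower (median 0.69), and of 23 complement genes tested, 7 (30.4%) were higher and 2 (8.7%) lower, where replicates 4 to 6 alone gave 6 lower and replicates 1 to 3 gave 3. The 3 fibrinogen chains, which hepatocytes assemble into 1 protein, parted ways. Fgb had 299, 1990 and 3270 CPM in the lowest, median and highest iHep library against 1.47 and 0.719 CPM at 48 h (10.72 ± 1.34, adjusted p = 2.00e-06). Fga had 0 to 22.6 CPM (adjusted p = 0.0145) and Fgg 0.0784 to 42.9 CPM (adjusted p = 0.00899) in iHep cells, with 0.0534 and 0.0225 CPM for Fga and 0.107 and 0.0449 CPM for Fgg at 48 h, and for both the lowest iHep library overlapped the 48 h pair. Neither was called without 48 h replicate 1 (adjusted p = 0.101 and 0.0764) or 2 (0.127 and 0.0989). In Hep the means of Fgb, Fga and Fgg were 9840, 6630 and 4500 CPM. F5 (factor V) had 11.6 to 160 CPM in iHep cells and 3.39 and 4.54 CPM at 48 h, and clusterin (Clu) 444 to 1470 CPM against 53.5 and 52.2 CPM. F9, F12 and Plg (factors IX and XII and plasminogen) had 0 counts in all 8 libraries and means of 484, 405 and 6670 CPM in Hep.

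Complement C3 had 372 and 515 CPM in replicates 1 and 3, 10.5 to 46 CPM in the other 4 iHep libraries and 4.94 and 2.76 CPM at 48 h (5.41 ± 1.56, adjusted p = 0.0082, or 0.0658 and 0.0982 without 48 h replicate 1 and 2). Cfb, factor B, had 45.1 to 92.8 CPM in replicates 4 to 6, 305 to 731 CPM in replicates 1 to 3 and 12 and 10.6 CPM at 48 h (4.69 ± 1.03, adjusted p = 0.000971). Thbd, the thrombin receptor thrombomodulin, fell to 0.824 to 4.71 CPM in iHep cells against 214 and 214 CPM at 48 h (-6.54 ± 0.52, adjusted p = 5.63e-09).

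Apoa1, which liver and gut secrete as the core of high-density lipoprotein, was the most abundant transcript per length in iHep cells, at a mean of 12200 FPKM against 2.76 FPKM at 48 h. It had 3150, 4650, 4170, 14600, 28200 and 17200 CPM in iHep replicates 1 to 6 and 2 and 3.03 CPM at 48 h (12.21 ± 1.17, adjusted p = 7.68e-08). Replicates 4 to 6 stood above, and replicates 1 to 3 below, the mean of 6410 CPM in Hep. Apoa2, a second protein of the same particle, had 0.0784 to 1.96 CPM in iHep cells, 0.48 and 0.584 CPM at 48 h and 8820 CPM in Hep (adjusted p = 0.96). Apob, which forms very low-density lipoprotein and chylomicrons, had 10.7, 101 and 532 CPM in the lowest, median and highest iHep library against 10.6 and 10.3 CPM at 48 h (4.00 ± 1.41, adjusted p = 0.0273, or 0.176 with replicates 4 to 6 and 0.156 and 0.161 without 48 h replicate 1 and 2), while Mttp, which loads lipid onto it, fell to 3.06 to 6.72 CPM against 9.21 and 8.61 CPM at 48 h (-0.94 ± 0.26, adjusted p = 0.00651, or 0.0661 without 48 h replicate 1).

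Of 29 lipoprotein genes tested, 12 (41.4%) were higher and 4 (13.8%) lower (median 1.61). Lpl, the lipase that adult liver makes little of, had 270 to 896 CPM in iHep cells, 21.2 and 19.6 CPM at 48 h and 11 CPM in Hep (4.81 ± 0.82, adjusted p = 7.69e-05). Its inhibitor Angptl4 had 574 to 1660 CPM in replicates 4 to 6, 50.8 to 163 CPM in replicates 1 to 3 and 20 and 16.4 CPM at 48 h (adjusted p = 0.00614, or 0.0645 and 0.0766 without 48 h replicate 1 and 2). Apoc2, the cofactor of Lpl, had 2.68, 44.6 and 181 CPM in iHep cells against 0 and 0.0449 CPM at 48 h. Apoe, abundant in hepatocytes, had 187 to 632 CPM in iHep cells, 125 and 126 CPM at 48 h and 91200 CPM in Hep, without passing the test (adjusted p = 0.109). Lipg, endothelial lipase, was lower at 0 to 0.784 CPM against 33.6 and 33.3 CPM at 48 h.

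**Figure D3:**
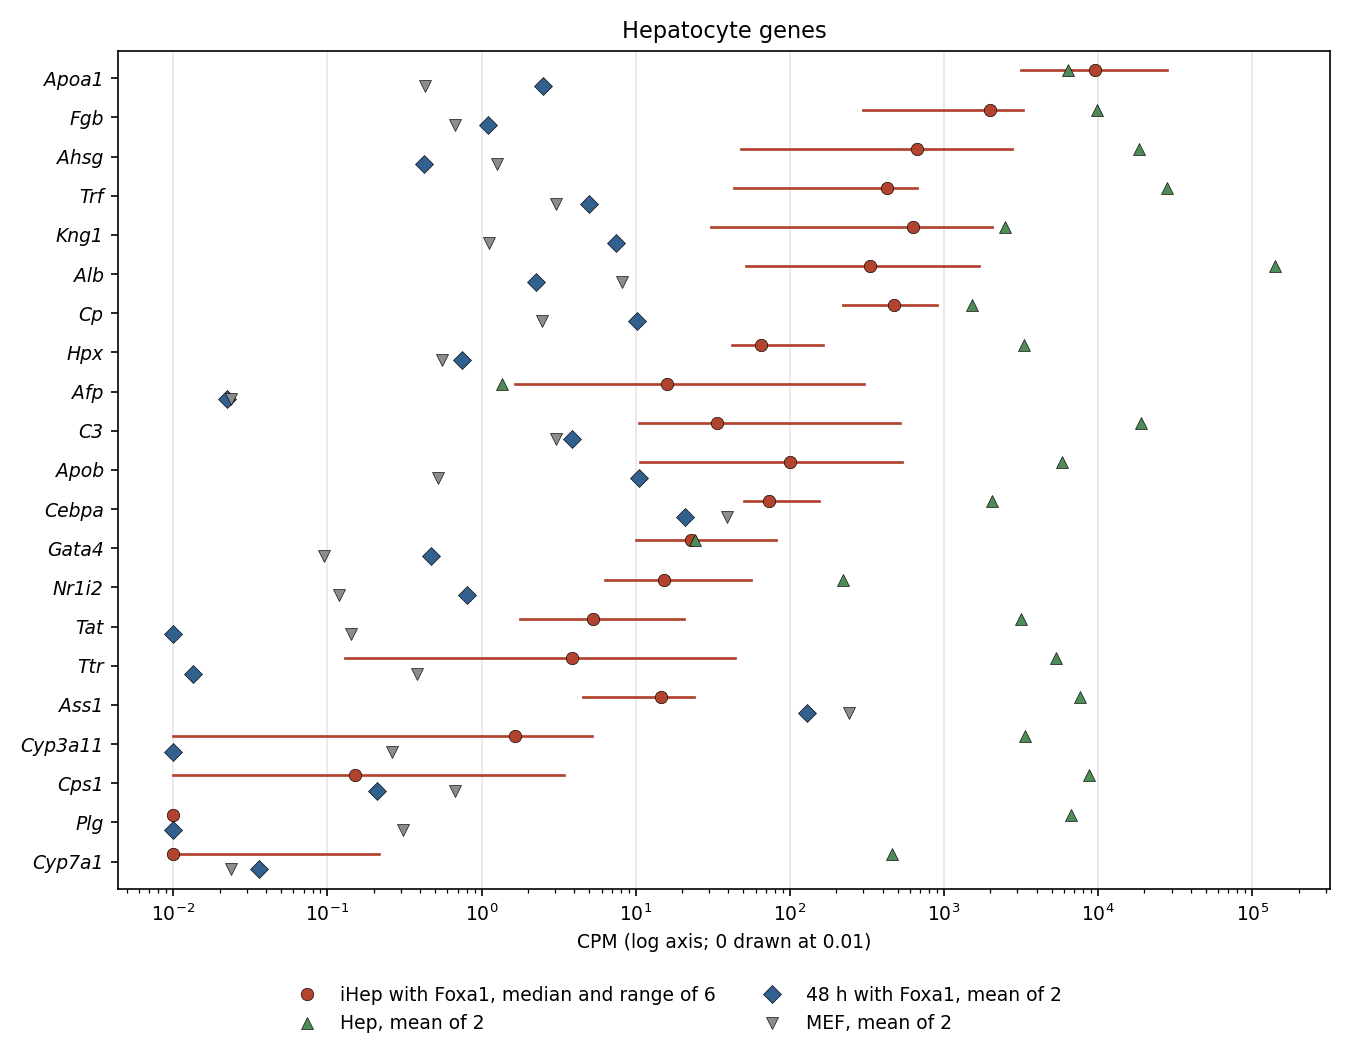
Levels in CPM, on a log x axis, of 21 hepatocyte genes named in the text. Circles with lines give the median and range of the 6 Foxa1 iHep libraries, upward triangles the mean of 2 Hep libraries, diamonds the mean of the 2 Foxa1 48 h libraries and downward triangles the mean of 2 MEF libraries, with 0 drawn at 0.01. Apoa1 spans the Hep level (3150 to 28200 against 6410 CPM), Alb lies far below it (51.8 to 1680 against 140000 CPM), and Plg stays at 0 in the iHep and 48 h libraries.

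Many detoxification genes were higher in iHep cells. Of 55 tested, 28 (50.9%) were higher and 2 (3.64%) lower, with a median log2 fold change of 2.63 (1.65 with genes at 0 counts at their bound), while replicates 4 to 6 alone gave 5 lower and replicates 1 to 3 gave 3. Gsta4, a glutathione transferase, had 693, 1470 and 1790 CPM in the lowest, median and highest iHep library against 31.1 and 30.5 CPM at 48 h (5.50 ± 0.46, adjusted p = 9.41e-09), above the 205 CPM of Hep. Gclc, the limiting enzyme of glutathione synthesis, had 433 to 1530 CPM in replicates 4 to 6, 2090 to 2200 CPM in replicates 1 to 3 and 35.8 and 37.9 CPM at 48 h (5.34 ± 0.73, adjusted p = 6.62e-06). Gsta1, whose reads are hard to separate from those of Gsta2, had 237 to 594 CPM against 0.267 and 0.0899 CPM at 48 h (11.10 ± 0.77). Every iHep library exceeded Hep for these 3 glutathione genes. Ephx2, an epoxide hydrolase, had 169 to 432 CPM in iHep cells, 12.2 and 12.2 CPM at 48 h and 473 CPM in Hep. The cytochromes P450 most typical of adult liver remained low. Cyp3a11 had 0 to 5.22 CPM in iHep cells, 0 counts at 48 h and 3360 CPM in Hep (adjusted p = 0.00391, with close copies in the genome). Cyp2e1 had 0.609 to 2.07 CPM in iHep cells, 0.534 and 0.607 CPM at 48 h and 5760 CPM in Hep (adjusted p = 0.178). Cyp2s1, a P450 of epithelia outside the liver, had 28.9 to 295 CPM in iHep cells, 1.41 and 1.53 CPM at 48 h and 0 CPM in Hep.

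In bile acid metabolism 8 of 22 genes tested (36.4%) were higher and 2 (9.09%) lower. Cyp27a1, the mitochondrial sterol hydroxylase of the acidic pathway, had 32.8, 88.3 and 194 CPM in the lowest, median and highest iHep library against 0.614 and 0.405 CPM at 48 h (7.49 ± 0.85, adjusted p = 5.65e-07). Cyp7a1, the rate-limiting enzyme of the classic pathway, had at most 0.217 CPM in any iHep library, 0.0267 and 0.0449 CPM at 48 h and 458 CPM in Hep (adjusted p = 0.841). Cyp7b1, which follows Cyp27a1, was lower, at 0 to 1.15 CPM against 6.48 and 6.07 CPM at 48 h. Of the exporters, Abcc3 on the basolateral side had 24.4 to 272 CPM against 2.05 and 2.52 CPM at 48 h and canalicular Abcb4 5.18 to 21.6 CPM against 0.267 and 0.584 CPM. The canalicular bile salt pump Abcb11 fell to 0 to 0.13 CPM in iHep cells against 0.374 and 0.427 CPM at 48 h, with 2150 CPM in Hep (adjusted p = 0.00637, or 0.0577 without 48 h replicate 2).

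Calls were mixed among genes of amino acid metabolism. Of 44 tested, 12 (27.3%) were higher and 5 (11.4%) lower (median 0.79). Gldc, of the glycine cleavage system, had 138 to 408 CPM in iHep cells, 1.25 and 0.944 CPM at 48 h and 450 CPM in Hep (7.61 ± 0.91, adjusted p = 1.16e-06), and glutamine synthetase (Glul) had 469 to 1490 CPM against 39.9 and 38.5 CPM at 48 h (4.66 ± 0.71). Tat, a tyrosine aminotransferase switched on around birth, had 1.78 to 20.5 CPM in iHep cells and 0 counts at 48 h (at least 222-fold higher, adjusted p = 0.00251). In the urea cycle, Cps1 had 0 to 3.44 CPM in iHep cells, 0.24 and 0.18 CPM at 48 h and 8750 CPM in Hep (adjusted p = 0.339). Ass1, which makes argininosuccinate, was lower in iHep cells at 4.55 to 23.8 CPM against 136 and 124 CPM at 48 h (-3.15 ± 0.51, adjusted p = 5.10e-05). Otc had at most 0.667 CPM in any iHep library and 0 counts at 48 h, without passing the test (adjusted p = 0.0911, or 0.0314 with replicates 1 to 3). Tdo2 and Kynu, of tryptophan breakdown, went to 0 counts in all 6 iHep libraries against 1.12 and 2.31 CPM and 1.01 and 0.899 CPM at 48 h. Hpd, of tyrosine breakdown, had 0 counts in all 8 libraries and 4890 CPM in Hep.

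Many genes of fatty acid oxidation were higher, and few genes of sterol and fatty acid synthesis were called. In the liver glucose list 9 of 20 were higher and 3 lower, where replicates 4 to 6 gave 1 lower and replicates 1 to 3 gave 2. Pygl, liver glycogen phosphorylase, had 18.4 to 195 CPM in iHep cells against 4.11 and 4.36 CPM at 48 h (4.12 ± 0.74, adjusted p = 0.000138), and pyruvate carboxylase (Pcx) 58.3 to 149 CPM against 34.9 and 34.5 CPM. The gluconeogenic enzymes Pck1 and G6pc had at most 0.941 and 0.285 CPM in any iHep library, and 9060 and 819 CPM in Hep, and neither was called (adjusted p = 0.132 and 0.0984, where Pck1 passed with replicates 1 to 3, at 0.0416). Fbp1, of the same pathway, had 0.544 to 5.13 CPM in replicates 4 to 6, at most 0.0929 CPM in replicates 1 to 3 and 0 counts at 48 h (adjusted p = 0.0132, or 0.41 with replicates 1 to 3 and 0.0905 and 0.104 without 48 h replicate 1 and 2). Of 34 genes of fatty acid oxidation, 16 (47.1%) were higher and 1 (2.94%) lower (median 0.69), while replicates 4 to 6 alone gave 2 lower and replicates 1 to 3 gave 4. Acsl1, which activates long-chain fatty acids, had 310 to 406 CPM against 21.3 and 22.7 CPM at 48 h (4.05 ± 0.37, adjusted p = 3.77e-08), and Acsm3, its medium-chain counterpart, 200 to 512 CPM against 2.11 and 2.72 CPM (7.11 ± 0.61). Pdk4, which holds pyruvate back from oxidation, had 169 to 735 CPM against 15.9 and 14.5 CPM at 48 h. Among 36 genes of sterol and fatty acid synthesis 2 (5.56%) were higher and 6 (16.7%) lower, and replicates 1 to 3 alone gave 17 lower and replicates 4 to 6 gave 8. Fasn had 96.9 to 136 CPM in iHep cells against 293 and 260 CPM at 48 h (-1.28 ± 0.27, adjusted p = 0.000638), and the elongase Elovl6 17.5 to 39.5 CPM against 91.1 and 93.5 CPM.

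**Figure D4:**
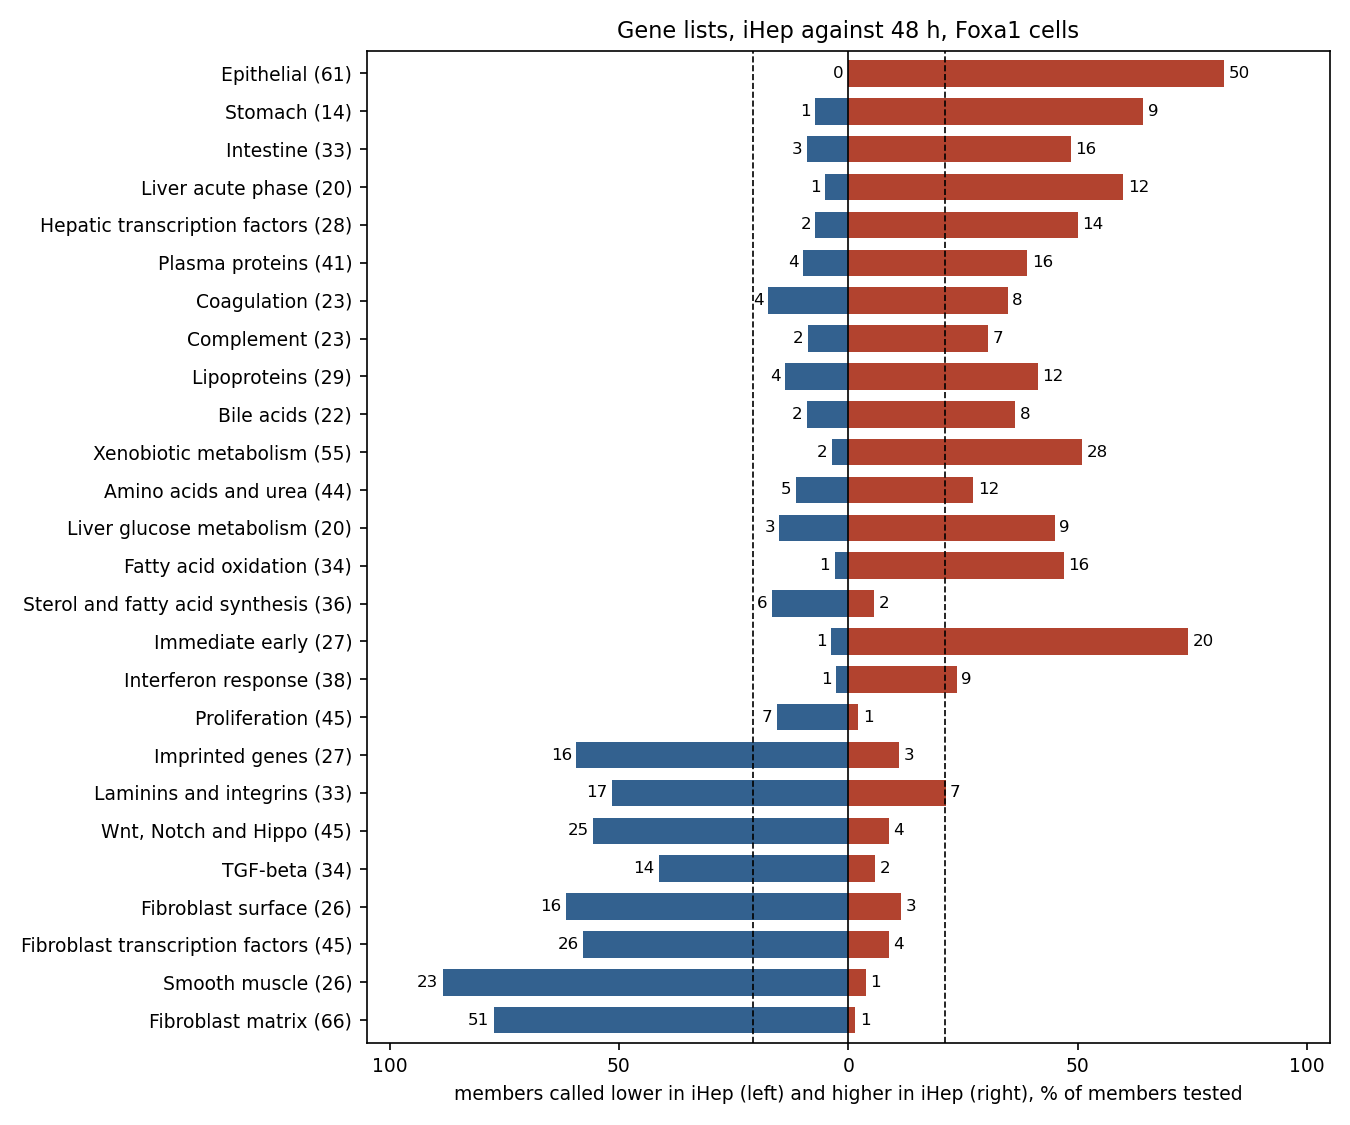
Share of tested members of 26 gene lists that were called higher (right, red) and lower (left, blue) in iHep than in 48 h Foxa1 cells, in percent of members tested, with the number of members tested beside each name and the number called at the end of each bar. Dashed lines mark the shares over all genes tested, 21.2% higher and 20.7% lower. Epithelial genes reach furthest right (50 of 61) and smooth muscle genes furthest left (23 of 26).

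Matrix genes of fibroblasts were mostly lower. Of 66 matrix genes tested, 51 were lower in iHep cells and 1 higher, with a median log2 fold change of -3.39, beside a background of 20.7% lower. Their summed level was 3650 to 16900 CPM in iHep cells, 75300 and 79300 CPM at 48 h and 110000 and 116000 CPM in MEF. Col1a1, the main chain of type I collagen, had 16.2, 39.1 and 215 CPM in the lowest, median and highest iHep library against 8560 and 7590 CPM at 48 h (-6.46 ± 0.70, adjusted p = 3.16e-07). Col1a2 had 7.51 to 78.4 CPM against 7760 and 6840 CPM (-7.82 ± 0.88), and Col3a1 1.17 to 21 CPM against 7770 and 7360 CPM (-9.87 ± 0.79). For all 3 collagens replicates 1 and 3 kept the most and still lay far below 48 h cells. Elastin (Eln) had 0 counts in replicates 4 to 6, 0.0392 to 3.09 CPM in replicates 1 to 3 and 934 and 823 CPM at 48 h (adjusted p = 5.63e-07). Postn, periostin, had 28.8 CPM in replicate 1, 0.304 to 1.44 CPM in the other 5 and 3130 and 3050 CPM at 48 h. Sparc fell to 24 to 196 CPM against 4470 and 4450 CPM at 48 h.

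Fibronectin was the exception in size. Fn1 had 4730 and 5020 CPM in replicates 1 and 3, 610 to 1070 CPM in the other 4 and 6350 and 6010 CPM at 48 h (-1.51 ± 0.60, adjusted p = 0.0486), and with replicates 1 to 3 alone it was not called (adjusted p = 0.139). Leaving out either 48 h library or any of iHep replicates 2, 4, 5 and 6 also ended its call, with adjusted p between 0.0757 and 0.181. Hepatocytes also make it, with a mean of 2000 CPM in Hep. Fbln1 was not called (-0.69 ± 0.53, adjusted p = 0.311, or 0.000586 with replicates 1 to 3), with 108 to 135 CPM in replicates 4 to 6, 21 to 38.6 CPM in replicates 1 to 3 and 132 and 116 CPM at 48 h. The collagenase Mmp13 was the 1 higher member, with 10.7 to 118 CPM against 3.15 and 3.75 CPM at 48 h (adjusted p = 0.0121, or 0.0831 with replicates 1 to 3 and 0.109 and 0.0923 without 48 h replicate 1 and 2).

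Lum and Tnn were among the losses with the smallest p. Lum (lumican, which spaces collagen fibrils) had 3 counts in all 6 iHep libraries together and 411 and 435 CPM at 48 h, a pooled ratio of 48 h to iHep of 20000 (exact interval 6860 to 97200, adjusted p = 1.77e-12). Tnn (tenascin N) had at most 0.186 CPM in any iHep library and 228 and 229 CPM at 48 h (-11.24 ± 0.39, adjusted p = 1.15e-14). With Foxa2 and Foxa3, iHep means were 0.0351 and 0.0111 CPM for Lum and 0.418 and 0.264 CPM for Tnn. The 48 h means were 422 and 408 CPM for Lum and 247 and 238 CPM for Tnn. Dkk2, a secreted Wnt modulator, had 0 to 0.217 CPM against 294 and 306 CPM at 48 h (-11.44 ± 0.55, adjusted p = 8.52e-12). The other genes among the 8 smallest p were Mest and F11r, described under imprinted and epithelial genes, with Ubtd2 (-2.30 ± 0.14), Aoc3 (-5.98 ± 0.35), a cell-surface amine oxidase, and Lrrc17 (-8.63 ± 0.54). Penk, which encodes enkephalins, was the most abundant of the 15 largest losses, with 0 to 1.36 CPM in iHep cells against 1790 and 1770 CPM at 48 h (-11.34 ± 0.78, adjusted p = 1.29e-09). Of the remaining losses, Enpep (aminopeptidase A), C1qtnf2, Tnmd (tenomodulin of tendon) and Lrrtm1 had 0 counts in every iHep library. They were at least 777, 645, 528 and 498-fold lower in that order, counted against 3 counts over the iHep group. Mfap4 (an elastic-fibre protein), Lrrtm3, Epha3 (an ephrin receptor), Gucy1a1 (a guanylate cyclase subunit) and Ldb2 (a LIM-domain cofactor) had at most 0.0929 CPM in any iHep library and 219, 43.8, 35.2, 26.1 and 39.9 CPM in the lower 48 h library.

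Fibroblast transcription factors were mostly lower. Of 45 tested, 26 were lower and 4 higher (median -2.01). Prrx1, a homeobox factor of limb and skin mesenchyme, had 11.5, 70.3 and 181 CPM in the lowest, median and highest iHep library against 903 and 916 CPM at 48 h (-3.58 ± 0.66, adjusted p = 0.000189). Twist1, a repressor of E-cadherin, had 24.1, 29.4 and 51.4 CPM against 126 and 138 CPM (-2.01 ± 0.25, adjusted p = 1.67e-06). Both remained detectable in all 6 iHep libraries, where Hep had 0.494 and 0.31 CPM. Further repressors of E-cadherin, Snai2 and Zeb2, had 2.01 to 10.8 and 1.2 to 24.1 CPM in iHep cells, against 80.8 and 72.7 CPM at 48 h for Snai2 and 73 and 77.7 CPM for Zeb2. The 4 higher members were Runx1 (56.1 to 78.7 CPM against 17.2 and 19.4 CPM), Ebf2 (9.32 to 36.1 against 5.47 and 6.02 CPM), Foxf2 (16.4 to 107 against 4.19 and 4.99 CPM) and Pparg (26.9 to 110 against 11.7 and 12 CPM). Ebf2 was not called without 48 h replicate 1 or 2 (adjusted p = 0.0702 and 0.0556). Runx1 and Pparg also act in blood, fat and gut epithelium, and Foxf2 is a factor of gut mesenchyme.

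Surface and contractile genes went with the matrix. Of 26 surface genes 16 were lower and 3 higher, and of 26 smooth muscle genes 23 were lower and 1 higher (medians -1.87 and -2.34). Pdgfra, a growth factor receptor that marks fibroblasts, had 1.29, 6.45 and 19 CPM in the lowest, median and highest iHep library against 236 and 244 CPM at 48 h (-4.81 ± 0.80, adjusted p = 6.05e-05). Cdh11, the mesenchymal cadherin, fell to 2.28 to 16.5 CPM against 1090 and 1110 CPM, and Thy1 to 0.228 to 8.17 CPM against 215 and 173 CPM. Vim, vimentin, kept 256 to 896 CPM in iHep cells against 2910 and 2790 CPM at 48 h (-2.30 ± 0.40, adjusted p = 0.000104), and Hep had 9.17 CPM. Higher members included Ly6a (Sca-1), with 391 to 1480 CPM against 85.6 and 77.8 CPM, and the receptor kinase Axl, with 437 to 992 CPM against 339 and 317 CPM. Acta2, smooth muscle actin, had 4.98 to 16.6 CPM in iHep cells against 1180 and 1090 CPM at 48 h (-6.98 ± 0.58, adjusted p = 9.95e-09). Tagln had 5.53 to 20.3 CPM against 922 and 907 CPM, and the contractile genes Cnn1, Myl9 and Myh11 had at most 0.712, 1.26 and 0.712 CPM in any iHep library and at least 84, 209 and 22.1 CPM at 48 h.

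Of 33 laminin and integrin genes 7 (21.2%) were higher and 17 (51.5%) lower. Among the higher ones, Itgb4, of hemidesmosomes, had 25.5, 64.2 and 165 CPM in the lowest, median and highest iHep library against 1.97 and 2.13 CPM at 48 h (5.22 ± 0.90, adjusted p = 8.74e-05). The laminin chain Lama5 had a median of 570 CPM in iHep cells, against 163 and 156 CPM at 48 h. Among the lower ones, Lama4 had 1.02 to 10.9 CPM against 245 and 251 CPM at 48 h (-5.71 ± 0.73), and the collagen receptor Itga11 at most 0.304 CPM against 16.4 and 16.9 CPM.

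Most called genes of the signalling pathways listed were lower. Of 45 genes of the Wnt, Notch and Hippo pathways 4 (8.89%) were higher and 25 (55.6%) lower, and of 34 TGF-beta genes 2 (5.88%) were higher and 14 (41.2%) lower. Axin2, a direct target of Wnt signalling, had 0.0569 to 2.26 CPM in iHep cells against 20.4 and 20.6 CPM at 48 h (-4.82 ± 0.77, adjusted p = 4.13e-05), and the secreted inhibitor Sfrp2 0 to 0.876 CPM against 183 and 171 CPM (-9.76 ± 1.23). The ligand Wnt4 was higher, with 32.6 to 251 CPM against 6.06 and 6.99 CPM at 48 h (4.47 ± 1.16, adjusted p = 0.00382, or 0.0569 without 48 h replicate 1). So were the Notch ligand Jag2, with 22.1 to 42.8 CPM against 0.534 and 0.562 CPM, and the Notch target Hes1, with 71.8 to 384 CPM against 17.7 and 18.9 CPM (3.85 ± 0.84). Tgfb2, a TGF-beta ligand, was lower, with 0.569 to 5.91 CPM against 84.8 and 94.5 CPM (-5.09 ± 0.49), and so was Fstl1, which binds such ligands, with 50.8 to 368 CPM against 2800 and 2680 CPM.

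Few Hox genes, which carry positional identity, were called, and many imprinted genes were lower. Of 38 Hox genes tested, 2 (5.26%) were higher, 4 (10.5%) lower and 32 not called. The Hoxd cluster changed at both ends: Hoxd12 had at most 0.341 CPM and Hoxd13 0.167 to 32.3 CPM in iHep cells, against 26.1 and 28.2 CPM and 221 and 244 CPM at 48 h (adjusted p = 4.87e-07 and 0.00434), while Hoxd3 and Hoxd4 had 2.96 to 9.71 and 9.72 to 23.6 CPM, against 0.374 and 0.629 CPM and 1.47 and 2.36 CPM (adjusted p = 0.00293 and 0.00319, or 0.0579 and 0.062 without 48 h replicate 1). Of 27 imprinted genes, which are expressed from 1 parental allele and often limit or promote fetal growth, 16 were lower and 3 higher (median -1.98). Igf2, a fetal growth factor, had 67.5, 441 and 937 CPM in the lowest, median and highest iHep library against 4650 and 4780 CPM at 48 h (-3.36 ± 0.78, adjusted p = 0.00168), with 1.47 CPM in adult Hep. Mest had 2.05 to 6.07 CPM against 499 and 490 CPM (-7.14 ± 0.33, adjusted p = 1.77e-12). Of the Dlk1 cluster, Dlk1, Meg3 and Rian had medians of 49.1, 20.5 and 21.1 CPM in iHep cells and at least 257, 280 and 385 CPM in each 48 h library. Grb10, a growth inhibitor, had 23.4 to 156 CPM in replicates 4 to 6, 7.11 to 16.5 CPM in replicates 1 to 3 and 971 and 970 CPM at 48 h. Peg10 had 3.98 to 13.7 CPM against 126 and 139 CPM. Phlda2 was higher, at 0.913 to 8.7 CPM against 0.08 and 0.135 CPM (5.07 ± 1.12, adjusted p = 0.00112).

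Immediate early genes, which respond within minutes to serum and stress, were higher in 20 of 27 cases and lower in 1 (median 2.35). The list summed to 2990 to 9950 CPM in iHep cells, 871 and 913 CPM at 48 h and 2210 and 5070 CPM in MEF. The 48 h libraries thus lay below the starting cells as well. Fos had 122, 317 and 525 CPM in the lowest, median and highest iHep library against 5.36 and 6.61 CPM at 48 h (5.78 ± 1.45, adjusted p = 0.00302, or 0.0507 without 48 h replicate 1). Junb had 197 to 331 CPM in replicates 4 to 6, 1790 to 2440 CPM in replicates 1 to 3 and 31 and 28.9 CPM at 48 h (5.30 ± 1.23, adjusted p = 0.0016), and 804 CPM in MEF. Between the library sets, 1 of the 27 was higher and 9 lower in replicates 4 to 6 (adjusted p = 0.000102 for Junb and 0.00406 for Jun). Over all genes, 17.4% were higher and 17.9% lower between the sets. What made the sets differ was not tested. Jun had 35.6 to 56.1 CPM in replicates 4 to 6, 227 to 361 CPM in replicates 1 to 3 and 63.2 and 61.7 CPM at 48 h, and was called with replicates 1 to 3 alone (adjusted p = 0.0239) but not with all 6 (adjusted p = 0.266). Egr1 had 203 to 1090 CPM against 66.5 and 72.1 CPM at 48 h, Atf3 22.9 to 363 CPM against 5.6 and 5.55 CPM (adjusted p = 0.00757, or 0.0787 and 0.0799 without 48 h replicate 1 and 2), and Klf4 138 to 352 CPM against 50.9 and 46.1 CPM. Myc, a growth regulator, had 188 to 249 CPM in replicates 4 to 6, 89.8 to 119 CPM in replicates 1 to 3 and 14.8 and 11.3 CPM at 48 h (3.67 ± 0.49, adjusted p = 4.70e-06, and 0.0062 between the sets). The ERK phosphatase Dusp6 had 122 to 238 CPM against 14.1 and 13.4 CPM (3.70 ± 0.40, adjusted p = 3.56e-07). MEF means (± SD, n = 2) were 74.3 ± 99.5 CPM for Fos, 268 ± 167 for Jun, 443 ± 511 for Egr1 and 221 ± 54.8 for Klf4. They were 17.6 ± 3.18 CPM for Atf3, 19.8 ± 10.9 for Myc and 20 ± 15.5 for Dusp6.

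Acute-phase genes of liver and inflamed epithelia were higher in 12 of 20 cases and lower in 1 (median 5.77, or 3.46 with genes at 0 counts at their bound). Lcn2, an iron-scavenging lipocalin, had 7.45, 44.4 and 153 CPM in the lowest, median and highest iHep library against 0 and 0.27 CPM at 48 h (8.81 ± 1.81, adjusted p = 0.000594). Saa3, of a family with close copies, had 9.92, 87.8 and 289 CPM against 0.133 and 0.0674 CPM (10.17 ± 2.20). Both were highest in replicate 1 and lowest in replicate 2. Lbp, the endotoxin-binding protein, had 167 to 618 CPM in iHep cells, 4.59 and 4.65 CPM at 48 h and 85.3 CPM in Hep (6.38 ± 0.92, adjusted p = 1.28e-05), and the chemokine Cxcl1 24.6 to 346 CPM against 2.61 and 2.47 CPM. Crp had 0 counts in all 8 libraries and 1100 CPM in Hep. Of 38 interferon-response genes 9 (23.7%) were higher and 1 (2.63%) lower, close to the background share of 21.2% higher. Oas2 had 2.87 to 54.3 CPM against 0.427 and 0.292 CPM at 48 h, and Mx2 15.4 to 34.7 CPM against 1.89 and 1.19 CPM.

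Few proliferation genes were called. Of 45 tested, 1 was higher and 7 lower (median -0.37), below the background in both directions. Mki67 had 169 to 288 CPM in iHep cells and 298 and 324 CPM at 48 h (adjusted p = 0.286), and Top2a 159 to 289 CPM and 323 and 337 CPM (adjusted p = 0.247), where Hep had 4.74 and 2.95 CPM. The calls that passed were modest: Cdk4 had 88.7 to 190 CPM against 290 and 255 CPM (-0.98 ± 0.21, adjusted p = 0.000722), the mitotic kinesin Kif20a 48.1 to 63.6 CPM against 127 and 132 CPM (-1.19 ± 0.32), and the replication licensing factor Cdt1 was the higher member (0.83 ± 0.30, adjusted p = 0.0301, or 0.117 with replicates 1 to 3 and 0.118 and 0.197 without 48 h replicate 1 and 2). Cdk1 followed the library set, with 86.5 to 94.8 CPM in replicates 4 to 6, 32.7 to 38.9 CPM in replicates 1 to 3 and 104 and 102 CPM at 48 h (adjusted p = 0.194, or 0.000644 with replicates 1 to 3).

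Markers of other cell types were read beside these gains. Of 21 leukocyte genes tested among 23 listed, 1 was higher and 11 lower, and the list summed to 25.5 to 149 CPM in iHep cells and 10.7 and 16.1 CPM at 48 h. The defining markers Ptprc, C1qa and Adgre1 had 0 counts in all 6 iHep libraries and 0.133 and 0.0899, 0.374 and 0.427, and 0.72 and 0.112 CPM at 48 h (Adgre1 adjusted p = 0.00218, or 0.0681 without 48 h replicate 1), and Csf1r had at most 0.0784 CPM in iHep cells. The higher gene was Cd14, an endotoxin receptor that epithelia can also make, at 24 to 146 CPM against 1.01 and 1.33 CPM. Of 20 endothelial genes 5 (25%) were higher and 6 (30%) lower, with a sum of 85.9 to 127 CPM in iHep cells and 68.3 and 70.3 CPM at 48 h. Replicates 4 to 6 gave 6 higher and replicates 1 to 3 gave 3. Pecam1 had 0.371 to 10.4 CPM against 0.08 and 0.112 CPM (adjusted p = 0.00806, or 0.0894 and 0.0758 without 48 h replicate 1 and 2). Cdh5 had 12.1 CPM in replicate 5 and at most 0.927 CPM in the other iHep libraries, against 0.0534 and 0.135 CPM at 48 h (adjusted p = 0.0505, which passed without iHep replicate 1, 2, 3, 4 or 6, at 0.0358 to 0.0477). The part of other cell types in the gains was not tested. Of 31 cholangiocyte and progenitor genes 10 (32.3%) were higher and 9 (29%) lower, with a sum of 4590 to 8280 CPM in iHep cells and 2860 and 2960 CPM at 48 h. Its factor Sox9 had 53.6 to 202 CPM against 21.1 and 22 CPM at 48 h (2.39 ± 0.53, adjusted p = 0.00116). Of 30 genes of retinol and metal handling tested, 8 (26.7%) were higher and 4 (13.3%) lower, where replicates 4 to 6 gave 4 lower and replicates 1 to 3 gave 7. Among the called ones, the gut zinc importer Slc39a4 had 31.9 to 202 CPM against 0.0267 and 0.0449 CPM, the transferrin receptor Tfrc 157 to 373 CPM against 41.8 and 49.4 CPM, and the retinoic acid carrier Crabp2 was lower at 0 to 2.79 CPM against 23.3 and 24.2 CPM.

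The iHep libraries differed among themselves more for some gut, airway and pancreatic products than for some junction and metabolic genes. F11r spanned 272 to 434 CPM and Acsl1 310 to 406 CPM over the 6 libraries, while Dmbt1 spanned 1.22 to 2310 CPM and Scgb1a1 1.08 to 463 CPM. Replicate 2 was the highest library for Vil1, Lgals4, Rbp2, Dmbt1, Cdhr2 and Lypd8, and replicate 6 for Tff3, Clca1, Scgb1a1 and Psca. Replicates 1 and 3 shared high amylase and collagen. Other genes followed the library set, with Apoa1, Kng1 and Cldn3 higher in replicates 4 to 6 and Foxa1, Junb and Cfb higher in replicates 1 to 3.

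**Figure D5:**
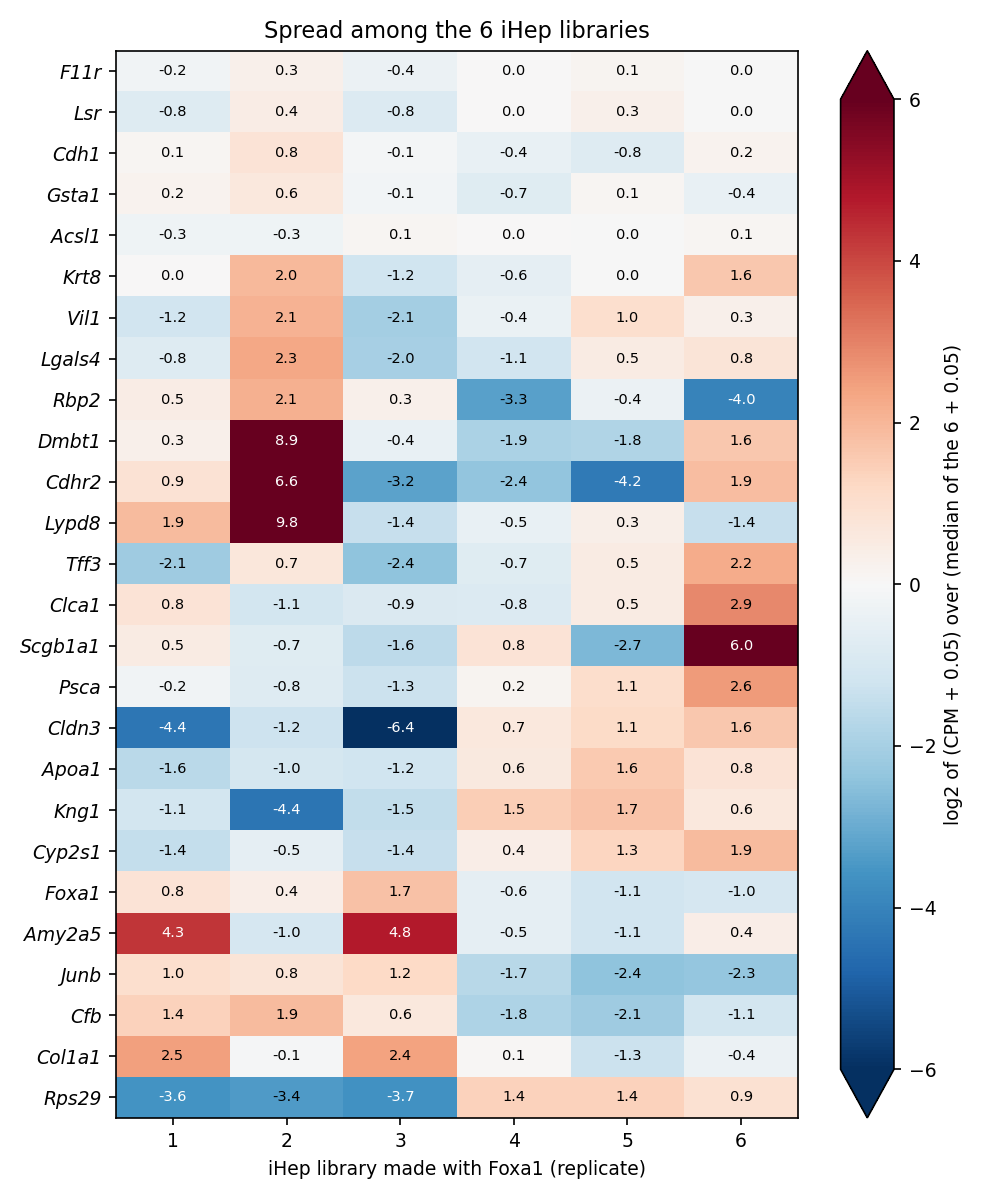
Spread of 26 genes among the 6 Foxa1 iHep libraries. Columns are replicates 1 to 6, rows are genes, and each cell gives, by colour and number, the log2 of the library's CPM plus 0.05 over the median of the 6 plus 0.05, with colours limited at 6 in either direction. F11r and Acsl1 stay near 0 in every column, Dmbt1 and Lypd8 stand out in replicate 2, Scgb1a1 in replicate 6, and Rps29 separates replicates 1 to 3 from 4 to 6.

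The late change with Foxa1 was set against that with Foxa3 and with Foxa2, as the difference of 2 differences (iHep minus 48 h with Foxa1, less iHep minus 48 h with the other factor). No gene passed for Foxa3 (0 of 16499, 0%), with 599 (3.63%) at an unadjusted p under 0.05 and a smallest adjusted p of 0.539 in edgeR. DESeq2 called Cyp4v3 and Scin higher (2 genes) and Nt5dc3, Prkcb and Tapt1 lower (3 genes), and iHep libraries of the matched set alone, replicates 4 to 6 with Foxa1 and 2 to 6 with Foxa3, gave 1, Gpld1, which like Prkcb is named only because the count is small. For Foxa2 the count was likewise 0 (0%), with 835 genes (5.06%) at an unadjusted p under 0.05, a smallest adjusted p of 0.133 and 4 genes called higher by DESeq2 (Cdhr2, Enpp3, Nos2 and Serpinf2). Of these, Cdhr2 had 87.6 CPM in iHep replicate 2 and at most 3.35 CPM in the other Foxa1 iHep libraries. Nos2 was also highest in replicate 2, at 43 CPM, with 5.28 to 18.5 CPM in the others. A miss at this threshold does not show that the factors act alike. Per factor, 3235 genes were higher and 3461 lower with Foxa3, and 3363 and 3256 with Foxa2.

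The genes with the smallest p in these differences, among those with a highest group mean of at least 10 CPM, are named. For Foxa3 they were Nt5dc3, Cyp4v3, Slc2a9, Scin, Tapt1, Smarca1, Phldb2 and Pxn. Cyp4v3, a fatty acid hydroxylase, averaged 39.5 ± 24.6 CPM in iHep cells with Foxa1 (SD, n = 6) and 17.5 ± 1.33 at 48 h (n = 2), and 3.56 ± 1.73 CPM in iHep cells with Foxa3 (n = 6) and 16.6 ± 2.06 at 48 h (n = 2), a difference of 3.39 ± 0.74 SE on the log2 scale (adjusted p = 1). Scin, an actin-severing protein, averaged 41.6 ± 42.2 CPM with Foxa1 and 0.761 ± 0.445 CPM with Foxa3 in iHep cells, and 0.352 and 0.302 CPM at 48 h (difference 5.53 ± 1.33, adjusted p = 1). Nt5dc3 went the other way, with 13.4 ± 3.48 CPM with Foxa1 and 54 ± 12.3 CPM with Foxa3 in iHep cells, and 45.5 and 50.7 CPM at 48 h (difference -1.85 ± 0.36, adjusted p = 0.539).

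For Foxa2 they were Enpp3, Cotl1, Nos2, Golm1, Serpinf2, Lrig3, Nup210 and Iyd. Nos2, the inducible nitric oxide synthase, averaged 16.2 ± 14.6 CPM in iHep cells with Foxa1 (SD, n = 6), had 0 counts at 48 h, and averaged 3.87 ± 2.37 CPM in iHep cells with Foxa2 (n = 4) and 1.38 ± 1.95 CPM at 48 h (n = 2) (adjusted p of the difference 0.853). Serpinf2, the plasma inhibitor of plasmin, averaged 132 ± 123 CPM with Foxa1 and 1.83 ± 1.31 CPM with Foxa2 in iHep cells, and 0.273 ± 0.122 and 0.319 ± 0.12 CPM at 48 h (difference 6.39 ± 1.68, adjusted p = 0.853). With Foxa1 it had 9.01, 154 and 10.8 CPM in iHep replicates 1 to 3 and 88.1, 328 and 204 CPM in replicates 4 to 6. Enpp3, an ectonucleotidase of epithelia, averaged 34.1 ± 10.9 CPM with Foxa1 and 1.22 ± 0.706 CPM with Foxa2 in iHep cells, and 10.2 ± 0.774 and 11.4 ± 1.44 CPM at 48 h (difference 4.97 ± 0.86, adjusted p = 0.133). All 4 iHep libraries with Foxa2 belong to the set with low Rn7sk, so for iHep replicates 4 to 6 the factor and the set cannot be told apart.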

How the data were processed

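RNA-seq libraries (RNeasy Micro RNA, stranded TruSeq mRNA kit, per the labels' protocols) were aligned with BWA 0.7.12 to mm9, per the submitters' processing notes; which quantifier and annotation were used is not given in the sources used here. Per the file headers, each deposited file lists, for 30710 transcripts, an expected count (Z), an FPKM value and the fraction of reads (THETA). Expected counts, as the authors deposited them, were nearly all whole, were summed per gene (30186 transcripts named through RefSeq, 185 through GENCODE, 339 unnamed) and rounded. The deposited FPKM served for levels between genes and for 1 alternative, as log2 (FPKM + 1) in limma, and the fraction was not used further.

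Genes passing edgeR's filterByExpr were fitted with 1 coefficient per group over all 28 libraries (quasi-likelihood, TMM scaling, 19 residual degrees of freedom) in edgeR 4.0.16, limma 3.58.1, DESeq2 1.42.0 and R 4.3.3, with p-values two-sided and Benjamini-Hochberg adjusted over all 16499 genes at 0.05. The fit was also run on simulated counts, with few genes changed, by small folds, and without library sets. That run does not measure error rates in these data. Overlap was judged on CPM. The SE of an edgeR log2 fold change is its absolute value over the square root of its F statistic, an approximation. Floors and intervals cover counting error only, since reads carried no molecular identifiers. Figures used matplotlib 3.10.9. Promoter sequences came from RefSeq on GRCm38.p6, while the counts rest on mm9, so coordinates belong to the sequences only.

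Named genes were Hnf4a and the Foxa genes, the 8 smallest p, members of gene lists (called members first), and Rn7sk and Rps29. Also named were the 15 largest gains and 15 largest losses among called genes without overlap, with at least 10 CPM in the higher group. Each difference between factors gave its 8 smallest p among genes with a highest group mean of at least 10 CPM. Rows known only by an identifier were left out, and some genes that these rules name are not reported here. The comparison, lists and rules were chosen with earlier results of these data known. Alternatives tried were DESeq2 size factors, no filter, each library set alone or as a term, the 8 libraries alone, the most abundant transcript per gene, a replicate block, limma, DESeq2, a minimum fold, and leaving out each library in turn.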

Additional observations from a re-analysis of the deposited data

Results flagged for a closer look

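In 48 of 218 named genes, the highest iHep library lay so far above the other 5 that the gap exceeded Dixon's 95% limit for 6 samples, with no lowest library far off. A chance rate of about 1 in 20 groups holds for normally distributed values. These levels are linear CPM, bounded on the low side only, so that rate does not apply and high values are flagged more easily than low ones. The genes share libraries, so these gaps are not independent of each other. Ranges in brackets are those of the other 5 iHep libraries.

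Replicate 2 stood apart most often, for 17 genes, many of them of gut, stomach or liver. It had 2310 CPM of Dmbt1 (1.22 to 14.3), 914 CPM of Ppp1r1b (0.304 to 66.1) and 293 CPM of Rbp2 (4.15 to 91.6). Further, it had 2410 CPM of Lgals4 (121 to 825), 75.6 CPM of Pdx1 (5.83 to 20.4) and 87.6 CPM of Cdhr2 (0 to 3.35). It also had 117 CPM of Lypd8 (0 to 0.433), 158 CPM of Cdh17 (0.522 to 8.61) and 213 CPM of Elf3 (6.95 to 75.7). Beside these it had 81.2 CPM of Gata4 (10 to 31.5) and 56.1 CPM of Nr1i2 (6.35 to 20.7). Among other genes it had 3.22 CPM of Nr1h4 (0 to 0.461), 43.9 CPM of Ttr (0.13 to 9.05) and 301 CPM of Afp (1.65 to 38.9). Last, it had 0.667 CPM of Otc (0 to 0.0929), 0.941 CPM of Pck1 (0 to 0.0515) and 43 CPM of Nos2 (5.28 to 18.5).

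Replicate 1 stood apart for 10 genes. It had 28 CPM of Nr1h3 (7.62 to 14.6), 1680 CPM of Alb (51.8 to 497) and 7.86 CPM of Serpinf1 (1.25 to 3.09). Further, it had 272 CPM of Abcc3 (24.4 to 91), 1.15 CPM of Cyp7b1 (0 to 0.309) and 3.44 CPM of Cps1 (0 to 0.773). It also had 28.8 CPM of Postn (0.304 to 1.44), 2.26 CPM of Axin2 (0.0569 to 0.824) and 42.8 CPM of Jag2 (22.1 to 27.8). Beside these it had 2.79 CPM of Crabp2 (0 to 0.712).

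Replicate 6 stood apart for 7 genes, among them secreted products of gut, stomach and airway. It had 3820 CPM of Tff3 (153 to 1270), 6540 CPM of Clca1 (416 to 1590) and 463 CPM of Scgb1a1 (1.08 to 13). Further, it had 0.0837 CPM of Ldb2 (0), 961 CPM of Psca (66.8 to 346) and 195 CPM of Pygl (18.4 to 84.6). It also had 118 CPM of Mmp13 (10.7 to 50.4).

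Replicate 3 stood apart for 5 genes. It had 0.0515 CPM of Lrrtm3 (0), 0.0515 CPM of Epha3 (0) and 0.0515 CPM of Gucy1a1 (0). Further, it had 3.09 CPM of Eln (0 to 0.557) and 0.876 CPM of Sfrp2 (0 to 0.279).

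Replicate 5 stood apart for 5 genes. It had 2750 CPM of Ahsg (48.2 to 996), 21.6 CPM of Abcb4 (5.18 to 9.78) and 149 CPM of Pcx (58.3 to 80.9). Further, it had 12.1 CPM of Cdh5 (0.157 to 0.927) and 202 CPM of Slc39a4 (31.9 to 88.1).

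Replicate 4 stood apart for 4 genes. It had 1.96 CPM of Apoa2 (0.0784 to 0.461), 0.217 CPM of Cyp7a1 (0 to 0.0619) and 1.26 CPM of Myl9 (0.293 to 0.569). Further, it had 143 CPM of Pxn (102 to 116).

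The values of Lrrtm3, Epha3, Gucy1a1 and Ldb2 rest on 1 or 2 counts over the 6 libraries.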

How the results depend on the processing

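The 6926 calls (3506 higher, 3420 lower) became 4223 (1953 higher, 2270 lower) when the 8 libraries were fitted alone, and ranged over 4046 to 7125 calls, 1694 to 3578 higher and 2352 to 3547 lower, when 1 library was left out, the low end coming without 1 of the 2 48 h libraries. Higher genes were 50.6% of calls, but 43.3% with no filter, 43.2% with limma and 41.9% and 42.1% without 48 h replicate 2 and 1; the other settings gave 46% to 51.9%. Of 84 list counts, 31 moved by more than 1.5 times with the 8 libraries alone, 35 without 48 h replicate 1 and 36 without 48 h replicate 2. The median of all genes moved by -0.146 on the log2 scale with replicates 1 to 3. Correlations of deviations between 48 h and iHep libraries lay within 0.038 of 0, and the replicate block gave 7298 calls. With 2 libraries at 48 h that correlated at 0.998, these values cannot decide whether libraries were paired between stages. For the differences between factors, DESeq2 gave 5 calls for Foxa3 (2 higher, 3 lower) and 4 for Foxa2 (4 higher), and the matched library set gave 1 for Foxa3 (1 higher, Gpld1). Of 3890 values for named genes, 3745 kept direction and side of the threshold, 104 lost the call, 22 gained one and 19 changed sign. Sign changes were in uncalled genes, as log2 fold changes: with replicates 4 to 6, Foxa2 -2.69, Cdh17 -2.98, Apoa2 0.68, Cps1 -0.94 and Jun -0.48; with library set as a term, Foxa2 -4.14, Cdh17 -2.30, Apoa2 0.58 and Jun -0.44; with limma, Cdh17 -0.65; with replicates 1 to 3, Cyp7a1 -0.54. Leaving out 1 library gave Cdh17 -1.95 to 1.54, Apoa2 -1.24 to 0.17, Cyp7a1 -0.97 to 0.79 and Cps1 -0.02 to 2.19. The cause was not tested. Of 206 named genes called, 201 were also called with replicates 4 to 6 and 201 with replicates 1 to 3, none in the other direction. Precision is limited by the 2 libraries at 48 h, by 17996416 to 31216564 reads in the iHep libraries, and by genes at 0 counts, for which 3 counts allow up to 0.0212 CPM over the iHep group and 0.0366 CPM over the 48 h group.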

Other observations

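Other gene lists are given as counts, beside the backgrounds of 21.2% higher and 20.7% lower over all genes. Of 21 genes of glycolysis and its non-hepatic isoforms tested, 12 were higher and 3 lower in iHep cells (median log2 fold change 0.85). Of 13 fetal liver genes tested, 3 were higher and 4 lower. Of 8 pancreas genes tested among 17 listed, 4 were higher and 1 lower. Members could pass the filter on low counts through the iHep libraries alone, so this count describes the tested members. The list summed to 606 to 9040 CPM in iHep cells (median 4040) and 1.51 and 1.57 CPM at 48 h. Spink1 alone had a median of 3980 and a highest value of 8990 CPM in iHep cells. Of 10 lung genes tested, 3 were higher and 1 lower, with sums of 8.12 to 540 CPM in iHep cells and 28.9 and 29.7 CPM at 48 h. The median sum in iHep cells was 22.1 CPM, below both 48 h libraries, and the airway gene Scgb1a1 had 463 CPM in replicate 6.

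Stress and growth lists were called as follows. Of 27 genes of the unfolded protein response and related stress, 9 were higher and 2 lower, and replicates 4 to 6 alone gave 11 higher and replicates 1 to 3 gave 7. Of 22 p53 targets and inhibitors of cyclin-dependent kinases, 7 were higher and 3 lower. Of 40 growth factor and receptor genes, 11 were higher and 14 lower, where replicates 4 to 6 alone gave 8 higher and replicates 1 to 3 gave 13. Of 18 genes of fatty acid binding and storage, 4 were higher and 3 lower. Erythroid genes summed to 4.51 to 35.8 CPM in iHep cells and 1.37 and 2.32 CPM at 48 h, and skeletal muscle genes to 5.35 to 15.9 CPM in iHep cells and 22.9 and 25.2 CPM at 48 h.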
